A study of Rattus norvegicus with 24 samples.

Results

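Gene expression in the lung of rat pups given desisobutyryl ciclesonide was compared with that in the lung of pups given dexamethasone. The comparison rests on 8 of the 24 RNA-seq libraries of the series, chosen by the tissue and treatment in their titles, 4 for each drug. Desisobutyryl ciclesonide was given at 1.25 mg/kg and dexamethasone at 0.1 mg/kg, so every difference below is between these drugs at these doses and not at a matched dose. The 4 vehicle lung libraries, from pups that received 2.5% ethanol, place the levels under each drug, and the 12 liver libraries of the same design show how far a difference extends beyond the lung. All pups were wild-type Sprague Dawley rats nursed by their mothers. They were injected subcutaneously on 5 days in a row from postnatal day 1, and the lung was taken on postnatal day 6, 24 hours after the last injection. Whether the drug injections also held ethanol is not stated separately in the labels.

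Glucocorticoids enter cells and bind the glucocorticoid receptor, a transcription factor that then moves to the nucleus and raises or lowers the transcription of its target genes. In the developing lung they are known for advancing surfactant production and thinning the walls between air spaces, and in newborn rodents dexamethasone is known to impair the division of air sacs into alveoli. Dexamethasone is a fluorinated synthetic glucocorticoid that acts throughout the body. Desisobutyryl ciclesonide is the active metabolite that esterases release from ciclesonide, an inhaled prodrug. It shares the steroid core of dexamethasone, has no fluorine, and carries an acetal with a cyclohexyl ring.

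The desisobutyryl ciclesonide libraries held 15839958 to 23195805 gene counts and the dexamethasone libraries 18880978 to 27881158, against 18582331 to 23078082 in vehicle lung. Genes are given by Ensembl identifier, because the deposited files do not pair identifiers with names and 0 of the 30560 identifiers matched the table of rat genes at hand. The labelled tissue could therefore not be checked against marker genes, and lists of glucocorticoid targets and lung cell types could not be applied. RNA came from whole lung, in which fewer cells of a type and less RNA per cell cannot be told apart. The deposited files number the desisobutyryl ciclesonide libraries in a series of their own, apart from dexamethasone and vehicle, in lung and in liver. A difference between the library series and a difference between the drugs cannot be told apart, and no drug difference within a series could be had. The same split lies between desisobutyryl ciclesonide and vehicle, but not between dexamethasone and vehicle. Dexamethasone replicates 3 and 4 differed from the other lung libraries in some genes. A set of 21 genes, each at least 4-fold higher in both of them than in any of the other 10 lung libraries, summed to 1559 and 4707 CPM there (CPM, a gene's counts scaled to a common library size). The same genes summed to 33.3, 37.7, 37.3 and 66.5 CPM in the desisobutyryl ciclesonide libraries and to no more than 66.5 CPM in any lung library outside these 2. Of the 21 genes, 19 were called lower with desisobutyryl ciclesonide than with dexamethasone. With both libraries left out, 4 of the 21 were called, counted without regard to direction. The genes were picked for their level in these libraries, so neither the sums nor the 19 calls are a test.

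By mean distance, each lung library of desisobutyryl ciclesonide lay farther from those of dexamethasone than from those of vehicle. The root mean square difference in log2 CPM over the genes tested was 0.84 to 1.32 across the 16 pairs of a desisobutyryl ciclesonide and a dexamethasone library, with a median of 1.16. It was 0.65 to 1.03, with a median of 0.77, across the 16 pairs of a desisobutyryl ciclesonide and a vehicle library. The 16 pairs of a dexamethasone and a vehicle library were the farthest apart, at 1.14 to 1.45 with a median of 1.32. Within groups the distances were 0.50 to 0.84 for desisobutyryl ciclesonide, 0.51 to 1.06 for dexamethasone and 0.45 to 0.68 for vehicle. The nearest neighbour of each of the 12 libraries was a library of its own treatment. Desisobutyryl ciclesonide replicate 4 was the closest of its group to dexamethasone, with a mean distance of 1.06, and the farthest of its group from vehicle, with a mean distance of 0.96. It lay 0.84 from dexamethasone replicate 3, closer than from any vehicle library (0.90 to 1.03). The dexamethasone group was the most variable, with a median within-group SD of 0.276 log2 CPM per gene, against 0.193 for desisobutyryl ciclesonide and 0.174 for vehicle. Over all genes tested, dexamethasone replicates 3 and 4 had mean distances of 0.77 and 0.82 to the rest of their group. Replicates 1 and 2 had 0.92 and 0.84. Leaving out dexamethasone replicates 3 and 4 left the distance between the drugs at 1.07 to 1.32, with a median of 1.20. These pairs share libraries and are given as a description.

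**Figure D1:**
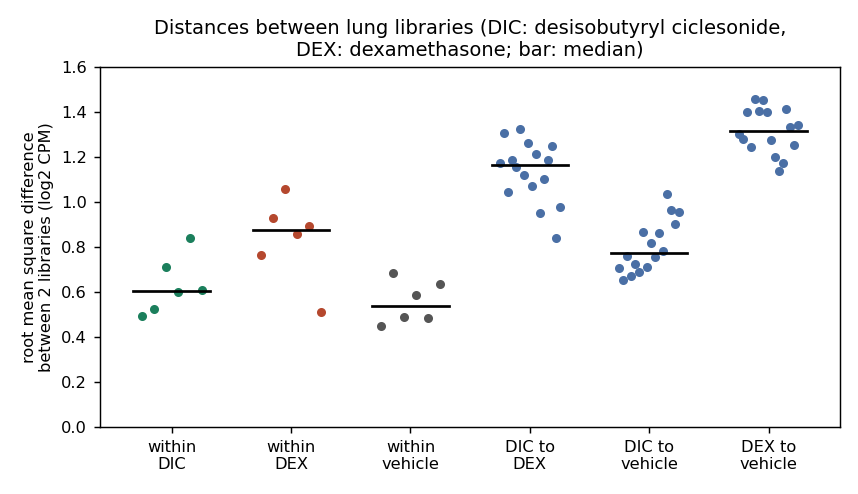
Root mean square difference in log2 CPM (vertical axis) for every pair of lung libraries, by kind of pair. Each point is a pair and the bar is the median. Pairs of desisobutyryl ciclesonide and dexamethasone libraries have a median of 1.16, above the 0.77 of desisobutyryl ciclesonide and vehicle pairs and below the 1.32 of dexamethasone and vehicle pairs.

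The drug groups are also separate library series, so drug and series cannot be told apart in the counts below. At these doses, levels differed between the drug groups in 7966 of the 16108 genes tested, or 49.5% (edgeR quasi-likelihood test, Benjamini-Hochberg adjusted p under 0.05). Of these, 4028 (25% of genes tested) were higher with desisobutyryl ciclesonide and 3938 (24.4%) were lower. Most of the differences were small. The median log2 difference was 0.83, or 1.78-fold, among genes called higher and -0.73, or 1.66-fold, among genes called lower, and it was 0.02 over all genes tested. A difference of at least 2-fold was seen in 2958 of the called genes, 18.4% of those tested, with 1567 (9.73%) higher and 1391 (8.64%) lower. At least 4-fold, there were 472 higher and 503 lower genes, and at least 16-fold, 36 higher and 60 lower. The test against a difference of at least 1.5-fold called 2773 genes, 1467 higher and 1306 lower. The labels name no litters, so the p-values treat the libraries as independent, which could not be checked. The spread behind them was estimated over all 12 lung libraries.

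In 7064 genes, 43.9% of those tested, the 4 values of desisobutyryl ciclesonide did not overlap with the 4 of dexamethasone. They lay above in 3591 genes and below in 3473. Of the called genes, 6657 (83.6%) were without overlap, and the other 1309 had at least 1 library inside the range of the other drug. Without a call there were 8142 genes (50.5%), and 994 of these had an unadjusted p under 0.05 in the edgeR test. In 5575 of the genes without a call (68.5%) the 95% interval of the difference lay within 2-fold, and in 3830 (47.0%) it lay within 1.5-fold. In the remaining genes without a call the interval reached past 2-fold.

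The called genes made up a large part of the RNA. Genes called higher with desisobutyryl ciclesonide took 30.3% to 35.3% of the gene counts in its 4 libraries (33.0% ± 2.11, SD, n = 4). They took 16.3% to 20.3% in the dexamethasone libraries (18.7% ± 1.87, n = 4) and 32.5% to 34.8% in the vehicle libraries (33.8% ± 0.963, n = 4). Genes called lower with desisobutyryl ciclesonide took 22.0% ± 0.946 of its counts, 36.3% ± 2.51 of the dexamethasone counts and 21.9% ± 0.721 of the vehicle counts (n = 4 each). The gap between the drugs follows from how the genes were chosen and is no test. Vehicle libraries took no part in the choice of direction, though they share in the estimate of the spread. In both gene sets the desisobutyryl ciclesonide and vehicle ranges overlapped, and the dexamethasone range lay apart from them.

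**Figure D2:**
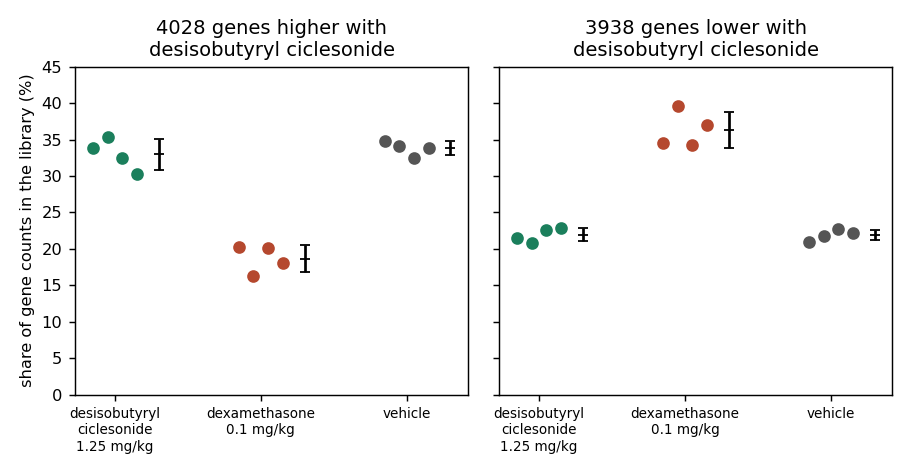
Share of each lung library's gene counts, in percent (vertical axis), that fell in the 4028 genes called higher (left) and the 3938 genes called lower (right) with desisobutyryl ciclesonide than with dexamethasone. Points are libraries, and the bars beside them give the mean ± SD (n = 4). The dexamethasone libraries sit at 16.3% to 20.3% on the left, apart from the other 8.

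For most called genes the vehicle level was nearer to the level under desisobutyryl ciclesonide than to that under dexamethasone. Both drugs are set against the same 4 vehicle libraries here, so the values are given side by side. Over the 7966 called genes the median absolute log2 difference was 0.29 between desisobutyryl ciclesonide and vehicle and 0.80 between dexamethasone and vehicle. Over the 2958 genes called at 2-fold or more it was 0.51 for desisobutyryl ciclesonide and 1.67 for dexamethasone. Vehicle was the nearer to desisobutyryl ciclesonide in 6546 called genes (82.2%) and the nearer to dexamethasone in 1420. By direction this held for 3451 of the 4028 genes called higher (85.7%) and 3095 of the 3938 called lower (78.6%). In 3347 called genes (42.0%) the vehicle level lay between the levels of the drugs. In 4152 (52.1%) the level under desisobutyryl ciclesonide lay between those of vehicle and dexamethasone, and in 467 (5.86%) the level under dexamethasone lay between those of vehicle and desisobutyryl ciclesonide.

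Genes in which a single drug group lay apart from the rest of the lung libraries were counted next. For desisobutyryl ciclesonide this is also the split by library series. In 1309 genes, 8.13% of those tested, all 4 desisobutyryl ciclesonide values lay above or all lay below the 8 dexamethasone and vehicle values. They were above in 528 and below in 781 genes. In 5243 genes (32.5%) all 4 dexamethasone values lay outside the range of the 8 desisobutyryl ciclesonide and vehicle values, 2479 above and 2764 below. Of the 1309 genes in which desisobutyryl ciclesonide lay apart, 1222 were also called between the drugs. Of these 155 were at least 2-fold higher and 253 at least 2-fold lower than with dexamethasone. For dexamethasone, 5084 of the 5243 genes were called between the drugs. Most genes without overlap between the drugs were called in any case (6657 of 7064), so these counts of calls follow from the choice of genes.

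Called genes were also counted by their level in vehicle lung, as a description. Vehicle levels lay mostly near those under desisobutyryl ciclesonide, so a class set by vehicle level bears on the direction of the difference, and no direction is read from the order of the classes. Among the 2152 genes at 100 CPM or more in vehicle lung, 1199 were called (55.7%), and 191 were at least 2-fold higher with desisobutyryl ciclesonide while 53 were at least 2-fold lower. From 10 to 100 CPM, 4565 of 8382 genes were called (54.5%), with 681 at least 2-fold higher and 376 at least 2-fold lower. From 1 to 10 CPM, 1661 of 3935 genes were called (42.2%), with 582 higher and 539 lower by 2-fold or more. The 1639 genes tested under 1 CPM in vehicle could pass the expression filter through a drug group where they were higher. How many did so was not counted, so neither their share of calls nor their direction is given as a result. With DESeq2 size factors, with library totals, without dexamethasone replicates 3 and 4 and without desisobutyryl ciclesonide replicate 4, the genes at 100 CPM or more gave 187 to 200 higher and 55 to 75 lower by 2-fold or more.

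**Figure D3:**
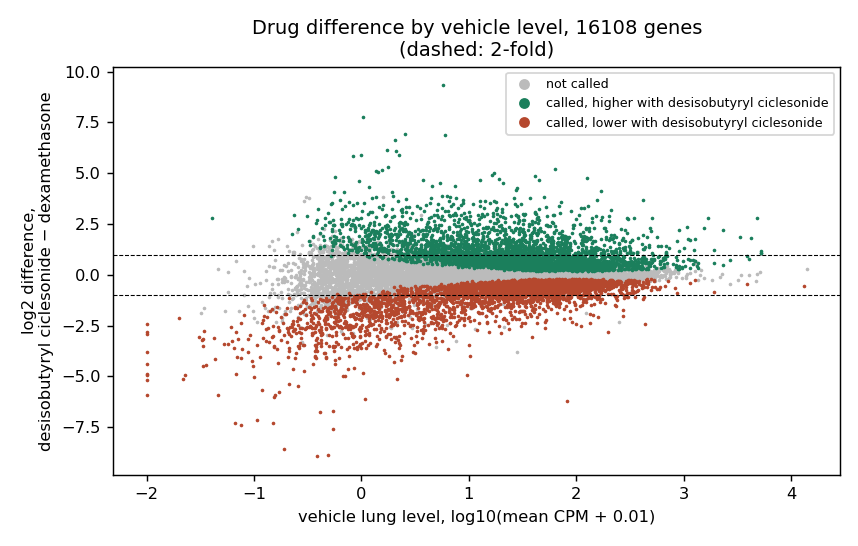
Log2 difference between desisobutyryl ciclesonide and dexamethasone (vertical axis) against the mean level in vehicle lung, as log10 of CPM plus 0.01 (horizontal axis), for 16108 genes. Green points are called higher and red points called lower with desisobutyryl ciclesonide, grey points are not called, and dashed lines mark 2-fold. At the right, 191 genes lie above the upper line and 53 below the lower line among those called at 100 CPM or more.

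Few genes were counted under a single drug. With no count in the 4 dexamethasone libraries, 9 genes had a count in all 4 desisobutyryl ciclesonide libraries and 20 counts or more in sum. All 9 had counts in vehicle lung, 8 of them in all 4 vehicle libraries. Among the 6 of them that passed the expression filter, the highest group mean was 3.77 CPM with desisobutyryl ciclesonide. With no count in the 4 desisobutyryl ciclesonide libraries, 25 genes met the same terms in dexamethasone lung. Of these 19 had any vehicle count and 4 had one in all vehicle libraries. Between the 2 that passed the expression filter, the higher group mean was 0.930 CPM with dexamethasone. A count of 0 over a group allows a level of up to 0.0396 CPM for desisobutyryl ciclesonide and 0.0331 CPM for dexamethasone, as 3 counts over the group and for counting error only. Of the 9 genes 6 passed the expression filter and were called, and of the 25 genes 2 did. The genes were picked for having counts under a single drug, so these calls follow from the choice and are no test.

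A pair of genes higher with desisobutyryl ciclesonide shows the pattern in single libraries. ENSRNOG00000003776 had 10.9, 11.9, 7.63 and 4.04 CPM with desisobutyryl ciclesonide, against 0.0941, 0, 0.168 and 0 CPM with dexamethasone. Vehicle lung had 8.48, 7.31, 4.24 and 4.07 CPM. The dexamethasone libraries were all far below the other 8, which overlapped with each other. The log2 difference between the drugs was 6.90 (SE 0.67, adjusted p = 5.92e-06 by edgeR), and it rests on 6 counts in the whole dexamethasone group. It was 7.90 without dexamethasone replicate 3, and 6.43 to 7.90 when each drug library was left out in turn. The log2 difference from vehicle was 0.52 for desisobutyryl ciclesonide (adjusted p = 0.416 by edgeR) and -6.38 for dexamethasone (adjusted p = 4.17e-06 by edgeR). The gene had no count in any of the 12 liver libraries.

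ENSRNOG00000023633 had 41.1, 32.5, 34 and 19.2 CPM with desisobutyryl ciclesonide, against 0.705, 1.02, 0.838 and 0.899 CPM with dexamethasone. Vehicle lung had 69.1, 69.9, 57.2 and 58.8 CPM. The 3 treatments did not overlap, and desisobutyryl ciclesonide lay below vehicle with dexamethasone far below both. The log2 difference between the drugs was 5.19 (SE 0.23, adjusted p = 8.77e-08 by edgeR). From vehicle, desisobutyryl ciclesonide differed by -1.01 (adjusted p = 0.00206 by edgeR) and dexamethasone by -6.20 (adjusted p = 6.73e-09 by edgeR) on the log2 scale. No liver library held more than 2 counts of it.

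The 2 genes that would have come first among those lower with desisobutyryl ciclesonide belong to the 21 genes high in dexamethasone replicates 3 and 4. They lost their call without those libraries, so the next 2 were taken, after their values had been seen. ENSRNOG00000004470 had 0.0453, 0, 0.062 and 0.199 CPM with desisobutyryl ciclesonide, against 18.0, 22.5, 3.27 and 5.00 CPM with dexamethasone. Vehicle lung had 0.0917, 0, 0.051 and 0.123 CPM. The gene was near 0 in the desisobutyryl ciclesonide and vehicle libraries and present in each dexamethasone library, with replicates 1 and 2 above replicates 3 and 4. The log2 difference between the drugs was -7.37 (SE 0.90, adjusted p = 3.69e-05 by edgeR), on 5 counts in the desisobutyryl ciclesonide group. It was -8.29 without desisobutyryl ciclesonide replicate 4, -8.11 without dexamethasone replicates 3 and 4 and -6.78 by limma-voom, and -8.29 to -6.89 when each drug library was left out in turn. The difference from vehicle was -0.02 for desisobutyryl ciclesonide (adjusted p = 0.993 by edgeR) and 7.35 for dexamethasone (adjusted p = 1.59e-05 by edgeR). The 12 liver libraries held 1 count of it in all.

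ENSRNOG00000011250 had 0, 0.0886, 0.124 and 0.597 CPM with desisobutyryl ciclesonide, against 13.4, 5.16, 14.7 and 15.6 CPM with dexamethasone. Vehicle lung had 0.138, 0.0943, 0.255 and 0.0822 CPM. Every dexamethasone library was above every other lung library. The log2 difference between the drugs was -6.03 (SE 0.70, adjusted p = 2.60e-05 by edgeR), on 13 counts with desisobutyryl ciclesonide. It was -7.40 without desisobutyryl ciclesonide replicate 4 and -6.69 by limma-voom, and -7.40 to -5.56 when each drug library was left out in turn. From vehicle the difference was 0.36 for desisobutyryl ciclesonide (adjusted p = 0.799 by edgeR) and 6.40 for dexamethasone (adjusted p = 8.51e-06 by edgeR). In liver it had no count with desisobutyryl ciclesonide, 1.99, 3.02, 12.5 and 14.0 CPM with dexamethasone, and at most 0.107 CPM in vehicle. The test of the tissue difference did not call it (adjusted p = 0.132 by edgeR).

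**Figure D4:**
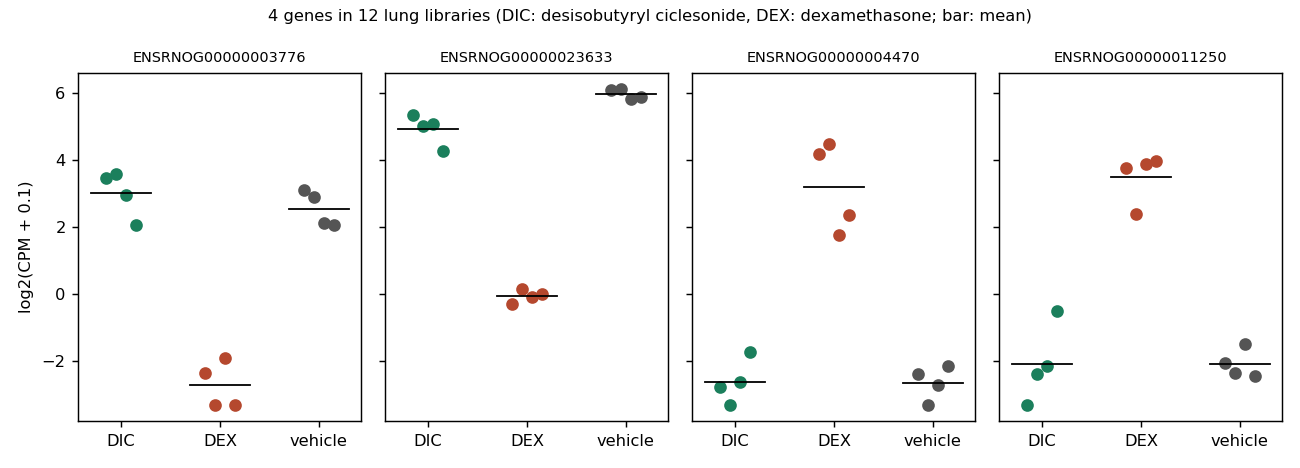
Level of the 4 genes described, as log2 of CPM plus 0.1 (vertical axis), in desisobutyryl ciclesonide, dexamethasone and vehicle lung from left to right. Points are libraries and the bar is their mean (n = 4). Dexamethasone lies far below the other groups in the 2 genes at the left and far above them in the 2 at the right.

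Liver libraries of the same treatments were set beside those of lung. Of the genes tested in lung, 13245 were also tested in liver, and 6919 of these (52.2%) were called between the drugs in lung, 3526 higher and 3393 lower with desisobutyryl ciclesonide. The 2863 genes tested in lung but not in liver were called in 1047 cases (36.6%), 502 higher and 545 lower. Their median level in vehicle lung was 1.30 CPM, against 30.95 CPM for the genes tested in both tissues. Of the 6919 genes called in lung, 5354 (77.4%) had a difference of the same sign in liver. The same share over all 13245 genes was not counted, so 77.4% is not read as particular to the called genes. Across the 13245 genes the log2 differences in lung and liver had a Pearson correlation of 0.53 and a Spearman correlation of 0.49. Genes are not independent replicates, the tissues share the library series, and by the data they appear to share the pups, so this is a description.

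The difference between the drugs was itself different in lung and liver for 3961 of the 13245 genes, or 29.9% (interaction term over all 24 libraries, edgeR, adjusted p under 0.05). This fit had no term for the pup. With the tissues paired by treatment and replicate number, 4475 genes were called, and 3806 of the 3961 were among them in the same direction. The counts below are from the fit without pairing. The difference, desisobutyryl ciclesonide over dexamethasone, was the more positive in lung for 1996 genes and the more negative in lung for 1965. In 2065 genes the tissues were at least 2-fold apart. Among the 6919 genes called in lung, 2366 (34.2%) also had a called tissue difference. The sign in liver was the opposite in 1290 of these, the same with the larger difference in lung in 565, and the same with the larger difference in liver in 511. In 574 genes the drugs differed in both tissues and in opposite directions, 286 of them higher in lung with desisobutyryl ciclesonide and 288 lower in lung. A further 1595 genes had a called tissue difference without a call between the drugs in lung, and the drugs differed in liver in 1510 of them.

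**Figure D5:**
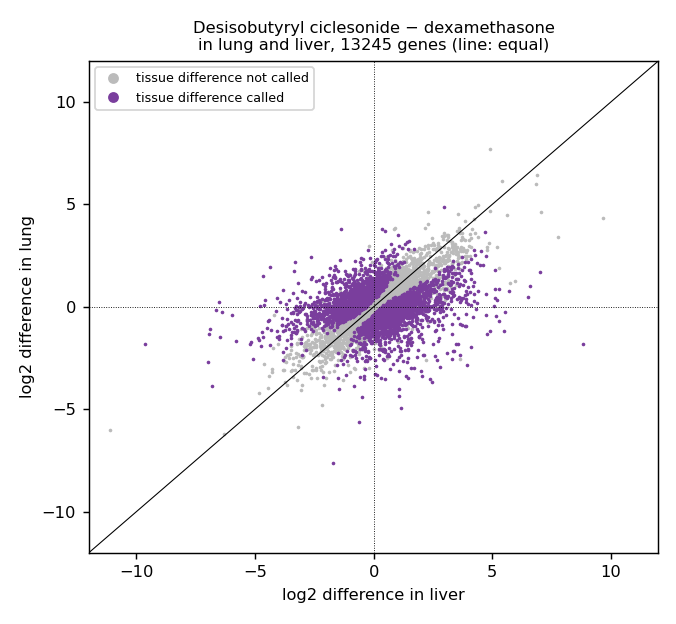
Log2 difference between desisobutyryl ciclesonide and dexamethasone in lung (vertical axis) against that in liver (horizontal axis) for 13245 genes. Purple points are the 3961 genes with a called tissue difference, grey points are not called, and the solid line marks equal differences. The points spread around the line with a Pearson correlation of 0.53.

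Reads left without a gene differed between the drugs as well. Aligned reads that fell on no counted feature took 13.4% ± 0.241 of the entries in desisobutyryl ciclesonide lung. They took 19.8% ± 0.931 in dexamethasone lung (SD, n = 4 each), against 16.2% ± 0.556 in vehicle lung. With the strand setting not given, these reads need not lie outside annotated genes. Unaligned reads took 1.08% ± 0.158 with desisobutyryl ciclesonide, 2.66% ± 0.706 with dexamethasone and 2.64% ± 0.287 in vehicle. Reads assignable to several genes took 1.21% ± 0.0415 with desisobutyryl ciclesonide, 1.36% ± 0.0288 with dexamethasone and 1.33% ± 0.0698 in vehicle. Reads with several alignments went the other way, at 3.78% ± 0.558 with desisobutyryl ciclesonide and 2.72% ± 0.137 with dexamethasone, against 2.90% ± 0.189 in vehicle. The vehicle mean was nearer to dexamethasone for unaligned reads, reads of several genes and reads of several alignments. For reads on no counted feature it was nearer to desisobutyryl ciclesonide. In these 4 classes the drugs did not overlap, and each had a two-sided exact permutation p of 0.0286, the smallest that 4 libraries against 4 can give, and an adjusted p of 0.0357 over 5 classes. Alignments of low quality took 3.79% ± 0.275 with desisobutyryl ciclesonide and 3.58% ± 0.272 with dexamethasone (exact permutation p = 0.343). These shares move with the drugs and with the library series, and their part in the differences between genes was not tested.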

How the data were processed

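RNA-seq was done on lung and liver of rat pups, 24 libraries in 6 groups of 4, grouped by the sample titles. Per the labels' protocols, Trizol RNA was selected for poly(A) and made into directional dUTP libraries. Trimming, alignment and counting tools are listed in the submitters' processing notes as cutadapt, HISAT2 and HTSeq, with the rat build mRatBN7.2. Versions, annotation release and strand setting are not given in the sources used here, so the counts of near-identical, antisense and overlapping genes are uncertain. The values the authors deposited are raw counts of reads per gene, in whole numbers, for 30560 Ensembl identifiers, with 5 closing summary lines that were kept out of library sizes.

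The analysis used edgeR 4.0.16 under R 4.3.3. After the default expression filter and TMM scaling, a robust quasi-likelihood model with 1 mean per treatment was fitted to the 12 lung libraries, desisobutyryl ciclesonide was tested against dexamethasone, and p-values were adjusted over all genes by the Benjamini-Hochberg method at 0.05. The tissue difference was tested over all 24 libraries. CPM use TMM-scaled library sizes, and distances used log2 CPM with a prior count of 2. The fits were tested on simulated data with 50 genes raised at each of 1.5-, 2- and 4-fold. The lung test called 30%, 58% and 88% of these, and the tissue test 6%, 50% and 80%. Among unchanged genes they called 3 and 9. A gene without a call can therefore still differ, above all in the tissue test. Shares of unassigned reads were compared by two-sided exact permutation tests. Alternatives included DESeq2 1.42.0, limma 3.58.1, other filters and scalings, and leaving out libraries.

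Deviations from the group means were correlated between the lung and the liver library that share a treatment and a number (Pearson r across genes 0.112 to 0.324 in 12 of 12 pairs), each closest to its own number, so the numbers were taken to pair tissues. Chi-square per degree of freedom between replicates was at least 11.0 in 18 lung pairs, so no library was counted as a repeat.

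The comparison, lists and tests were chosen with earlier results of these data known. Lacking gene names, 38 gene lists were not applied. Printed genes had the largest log2 differences each way among called genes that averaged 5 CPM or more under the higher drug and had no overlap between the drugs. Of the genes meeting this, 2911 higher and 2832 lower, 2 were printed each way, passing over 2 lower genes as described.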

Additional observations from a re-analysis of the deposited data

Results flagged for a closer look

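The 21 genes high in dexamethasone replicates 3 and 4 summed to 66.5 CPM in desisobutyryl ciclesonide replicate 4, against 33.3, 37.7 and 37.3 CPM in replicates 1 to 3 of that drug, a gap that is large for a group of 4. It was the only such value among 32 sets of 4 values examined, and chance gives about 1 in 20. The genes had been picked for their level in the 2 dexamethasone libraries, and the part of these values in other results was not tested. Leaving out desisobutyryl ciclesonide replicate 4 gave 7697 called genes between the drugs.

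The difference between desisobutyryl ciclesonide and dexamethasone was not the same in lung and liver for 3961 of 13245 genes by the edgeR interaction test. Leaving out a lung drug library in turn gave 3531 to 3846 such genes, and leaving out dexamethasone replicates 3 and 4 together gave 3676.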

How the results depend on the processing

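The count of 7966 called genes stayed within 1.5 times, at 6893 to 8389, under every alternative but the test against 1.5-fold, which called 2773 and asks for a larger difference by its construction. Other scalings gave 7974 (DESeq2 size factors) and 7880 (library totals), the 8 drug libraries alone 7035, and DESeq2 8389. Leaving out a drug library gave 6945 to 7911. Leaving out dexamethasone replicates 3 and 4 gave 7604, of which 6578 were called the same way with all libraries and 3 the opposite way. The share of called genes that were higher was 48.4% to 52.9%. The same 5699 genes were called the same way in 16 settings, those other than the 1.5-fold test and the stricter filter.

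Between the drugs in lung, libraries of the same number had correlated deviations over 0.1 in replicate 4 alone (r 0.362, and -0.141 to 0.0984 in the other 3, 2 of 4 best with their own number), so the numbers were not taken to pair the drugs. The replicate block gave 7904 genes. For the tissue difference, the replicate block by pup gave 4475 genes, and the other alternatives 3447 to 3965. The share of called genes with vehicle nearer to desisobutyryl ciclesonide was 80.5% to 85.4% in 4 settings chosen after seeing the data, as were those for the counts by vehicle level. The 2 printed genes higher with desisobutyryl ciclesonide kept their direction and call in 18 alternatives. They had been picked for the largest differences in these same data, so this is no independent support. The 2 lower ones were chosen to keep theirs, which says nothing of stability.

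Without a drug library, desisobutyryl ciclesonide less dexamethasone was -6.81 to -6.06 percentage points for reads on no counted feature. It was -0.161 to -0.129 for ambiguous reads, -1.82 to -1.30 for unaligned reads and 0.784 to 1.18 for several alignments. All 4 then had an adjusted exact permutation p of 0.0714, because 4 libraries against 3 allow no smaller p. With aligned reads as the denominator the adjusted p was 0.0381 in the 3 classes that remain. The Y-linked covariate and the gene lists were not run, for want of gene names. Genes at few counts limit the largest differences.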
